A study of Mus musculus with 4 samples.

Results

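The genes described here are 10 components of the NOTCH pathway, taken by symbol from a fixed list: the receptor genes Notch1, Notch2 and Notch3, the ligand genes Jag1, Jag2 and Dll4, the DNA-binding factor Rbpj, the target genes Hes1 and Hey1, and the regulator Dtx1. All 10 had a row in the count tables, among 21878 rows in all. RNA came from livers of C57BL/6 mice, from cells retained on magnetic columns (MACS) by an antibody to the surface protein CD24; the labels call them liver progenitor cells and also hepatocytes. There were 2 libraries of HACY mice and 2 of CCL4 mice. Mice of the CCL4 group received the liver toxin carbon tetrachloride (CCL4) intraperitoneally in olive oil, at 2 ml/kg and 2 injections weekly, over 6 weeks. Mice of the HACY group received 3 intraperitoneal injections weekly over 6 weeks of CHIR99021, which blocks glycogen synthase kinase 3, A-83-01, which blocks the type I receptors of TGF-beta, and Y-27632. The protocol gives an age of 8 weeks at injection, and the age field of the labels gives 6 to 8 weeks. The labels do not settle whether HACY mice also received CCL4, and no untreated group was included, so every difference below is HACY relative to CCL4 and belongs to neither treatment alone. They also do not say whether the replicates were separate animals, so p-values measure the spread between these libraries, which may be technical.

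NOTCH receptors are single-pass membrane proteins that bind ligands of the Jagged and Delta-like families on a neighbouring cell. Binding exposes the receptor to ADAM proteases and then to the gamma-secretase complex, and the freed intracellular domain enters the nucleus, where it joins RBPJ and a Mastermind coactivator and switches on genes of the HES and HEY families. In the liver the pathway is known for directing progenitor cells towards the bile duct fate, through JAG1 and NOTCH2, and for the shaping of sinusoids and arteries, through DLL4 and NOTCH1.

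RBPJ binds DNA at sites with the core TGGGAA, found in full sites as GTGGGAA. RefSeq promoter windows of GRCm38.p6, which run from 250 bases before a start site to 50 bases from it onwards, were matched by symbol for 8 of the 10 genes, in 9 windows; Hes1 and Hey1 had no entry. TGGGAA was looked for on both strands, where it also counts every GTGGGAA. It lay in 2 of the 9 windows, both of Rbpj itself, while 25.6% of all 32851 windows hold it. These 2 windows overlap and share a site. By gene, only Rbpj of the 8 held TGGGAA, where 28.3% of all 27025 genes hold it. GTGGGAA lay in none of the 9 windows and lies in 6.38% of all. In the first Rbpj window the cores began 149 and 65 bases before the start site, the first on the strand of the gene and the other, shared with the second window, on the opposite strand. The stretch of that window that no annotated exon covers is shown because it holds one of these cores, in capitals (chr5:53590096-53590213, GRCm38.p6, plus strand).
Rbpj: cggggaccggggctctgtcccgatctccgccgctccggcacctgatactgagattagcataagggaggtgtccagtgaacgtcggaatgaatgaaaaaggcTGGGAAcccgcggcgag
A match to these letters is a description of the sequence and not a measured binding site. The windows of Jag2 and Dtx1, the genes with the largest changes below, lay wholly inside annotated exons and are not printed.

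Total counts were 18467299 to 19314219 per library. Of 13428 genes tested by edgeR's quasi-likelihood test, 1576 differed at an adjusted p below 0.05, 11.7% of those tested, with 1100 higher in HACY and 476 lower. Scaling by library size alone gave 856 higher and 1355 lower and moved the median log2 fold change of all tested genes from -0.01 to -0.18, and a correction for GC content and length gave 1264 and 987. Levels below are TMM-scaled CPM, read counts relative to a library total corrected for composition, unless FPKM (per length and library size, made by the authors) is named. The libraries were checked for markers of cell types that the sort could hold. Summed over 8 hepatocyte markers the levels were 26117 and 32940 CPM in the HACY libraries and 7896 and 6418 in the CCL4 libraries, led by Alb, and the 7 macrophage markers summed to 2406 and 1752 against 737 and 776 CPM. Neutrophil markers summed to 220 CPM in CCL4 replicate 2 and to 28.4 to 35.6 in the other libraries. CCL4 replicate 2 also exceeded CCL4 replicate 1 for 10 of 10 endothelial and 8 of 8 stellate and mural markers. Among other defining markers, Cd3e and Cd3d of T cells and Lrat of stellate cells were at 0 in at least 1 library, and none of the endothelial, bile duct or macrophage ones was. Bile duct markers summed to 2938 and 4239 CPM in HACY and 1174 and 2209 in CCL4, mostly Spp1, with 1 of 7 tested called higher and a median log2 fold change of 0.59. The defining gene Krt19 had 12.7 and 17.3 CPM in HACY and 7.33 and 20.9 in CCL4.

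**Figure D1:**
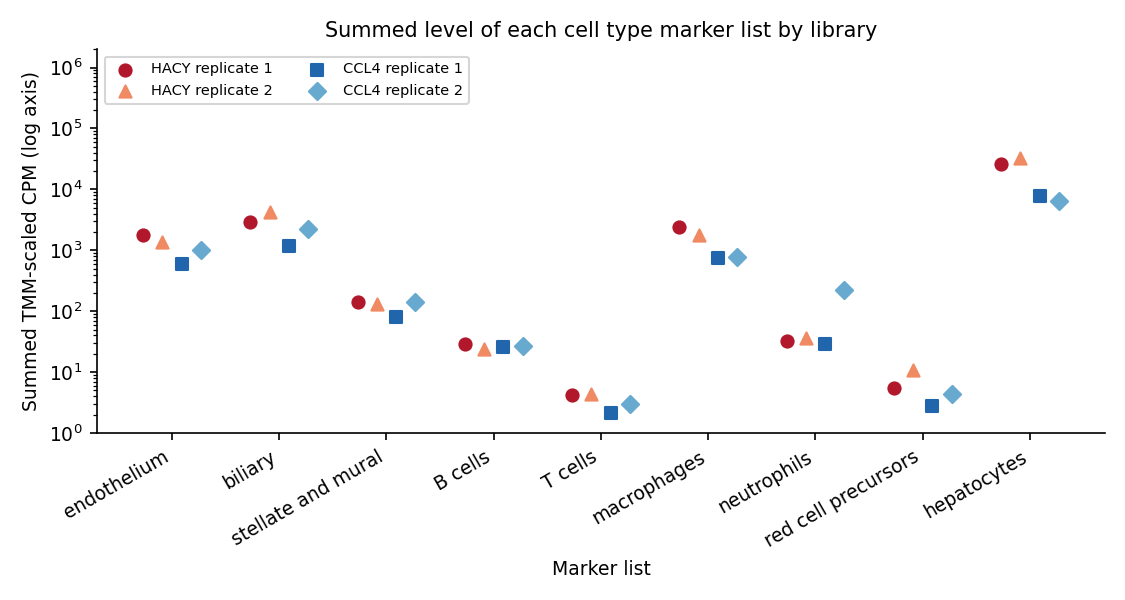
Summed TMM-scaled CPM (log axis) of each cell type marker list in the 4 libraries, 1 point per library. Hepatocyte, macrophage, endothelial and bile duct lists are higher in both HACY libraries, B cell markers lie between 24.1 and 29.3 CPM throughout, and neutrophil markers stand apart in CCL4 replicate 2 at 220 CPM.

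Jag2 and Dtx1 were lower in HACY than in CCL4, and none of the 10 genes was called higher. That is 2 of 10 called lower, where 3.54% of all tested genes were lower and 8.19% higher. The median log2 fold change of the 10 was 0.10, beside -0.01 over all tested genes. At an unadjusted p below 0.05 there were 2 higher and 3 lower, where 30.1% of all tested genes passed in either direction, and DESeq2 also called Notch2 higher. Groups did not overlap for 5 of them, where 60.8% of all tested genes were apart. HACY was above for 2 (30.7% of all tested genes) and below for 3 (30.1%). All 10 passed the filter on low counts, but Jag2 reached the minimum in only 1 HACY library and passed through the CCL4 libraries, so its passage depended on its level in CCL4. In bulk RNA of a sorted fraction, fewer cells of a type and less RNA per cell cannot be told apart.

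**Figure D2:**
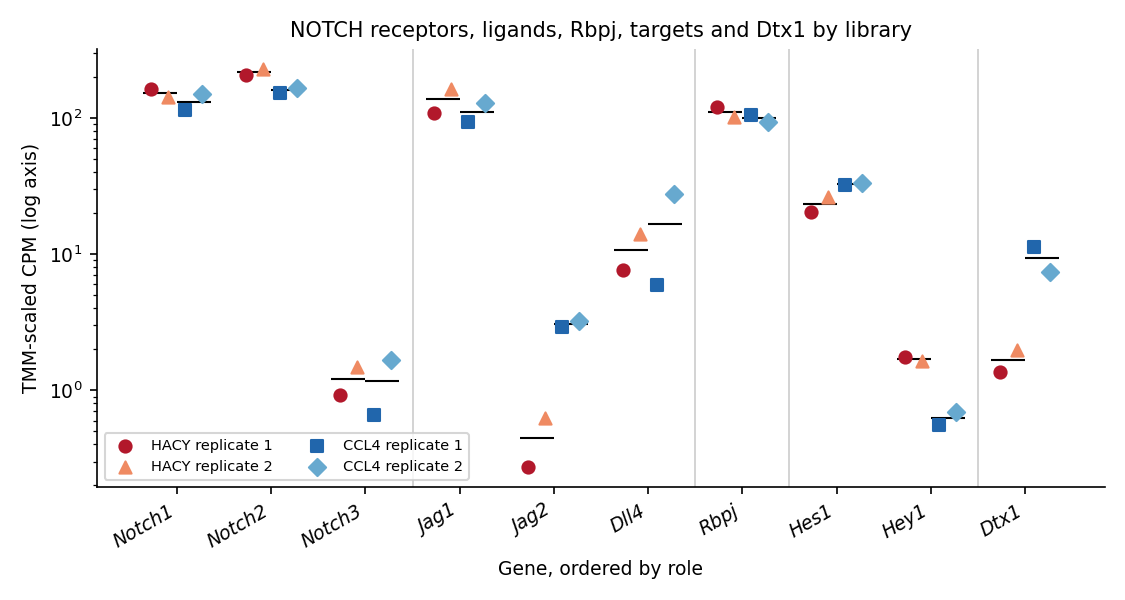
TMM-scaled CPM (log axis) of the 10 genes in the 4 libraries, with each group's mean as a line; grey lines separate receptors, ligands, Rbpj, targets and Dtx1. The HACY points of Jag2 and Dtx1 lie below both CCL4 points, those of Notch2 and Hey1 above, and Dll4 spans 5.92 to 27.6 CPM within CCL4.

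The receptor genes were led by Notch2 and Notch1, and Notch3 was close to the limit of detection. Notch2 (chromosome 3, 98013527 to 98150361, GRCm38, as for all positions below) encodes the receptor known for bile duct formation. Its exons share 541 bases with the annotated gene Gm42820 on the same strand, where strand cannot separate reads. Notch2 had 207 and 228 CPM in HACY replicates 1 and 2 and 153 and 166 in CCL4 replicates 1 and 2. Both HACY libraries were above both CCL4 libraries. The fold was 1.36 (95% interval 1.12 to 1.66; log2 0.45, SE 0.12), with an edgeR adjusted p = 0.0576, which misses the threshold. Its adjusted p lay between 0.0333 and 0.393 over 16 alternatives and passed in 4 of them, DESeq2 (0.0488), no filter (0.0468), the correction for GC content and length (0.0338) and without CCL4 replicate 2 (0.0333).

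Notch1 (chromosome 2, 26457903 to 26516663), the receptor best known from endothelial and T cells, had 164 and 143 CPM in HACY and 114 and 149 in CCL4. The groups overlapped, since CCL4 replicate 2 lay between the HACY libraries. By edgeR the log2 fold change of 0.23 had an SE of 0.16, a 95% interval of -0.15 to 0.61 and an adjusted p = 0.385. A pair of annotated noncoding genes shares exon bases with Notch1 on the opposite strand (1068 and 414 bases), and the strand setting of the counting is not given in the sources used here.

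Notch3 (chromosome 17, 32120820 to 32166852), the receptor of vascular smooth muscle and pericytes, had 17 and 26 counts in HACY and 13 and 34 in CCL4, or 0.928, 1.48, 0.657 and 1.68 CPM. The lowest and the highest value were both in CCL4. Its log2 fold change was 0.04 with a 95% interval from -1.33 to 1.40, and its sign turned under upper-quartile scaling, library size scaling and without HACY replicate 2 or CCL4 replicate 1. Stellate and mural markers summed to 79.3 CPM in CCL4 replicate 1 and to 139 in CCL4 replicate 2, beside 142 and 133 in HACY; their part in the level of Notch3 was not tested. Exons of Notch3 share 488 bases with an antisense gene.

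Among the ligands, Jag1 was the most abundant in all 4 libraries per length. Jag1 (chromosome 2, 137081456 to 137116644), the ligand whose loss in humans causes Alagille syndrome with too few bile ducts, had 109 and 164 CPM in HACY and 93.0 and 129 in CCL4. Replicate 2 was the higher library in each group and the groups overlapped. The change in log2 units was 0.30 (SE 0.23; 95% interval -0.25 to 0.84; adjusted p = 0.437 by edgeR), and -0.03 without HACY replicate 2.

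Jag2 (chromosome 12, 112907819 to 112929776), the other Jagged ligand, had 5 and 11 counts in HACY and 58 and 66 in CCL4. As CPM these are 0.273 and 0.624 against 2.93 and 3.25. Both HACY libraries were far below both CCL4 libraries, and the exact Poisson 95% intervals of the counts, which cover counting error only, were 1.62 to 11.7 and 5.49 to 19.7 in HACY and 44.0 to 75.0 and 51.0 to 84.0 in CCL4. Jag2 was 6.84-fold higher in CCL4 (log2 fold change -2.77 for HACY over CCL4, SE 0.51, edgeR adjusted p = 0.0181). Over the 13 alternatives that tested it, 11 called it, the log2 fold change ran from -3.47 to -1.94 and the adjusted p from 0.00215 to 0.108. The call was lost without HACY replicate 1 (log2 -2.30, adjusted p = 0.108), the library with 5 counts, and in log2(FPKM + 0.1) with no mean filter (0.0529). Per length the levels were 0.0618 ± 0.00881 FPKM in HACY and 0.520 ± 0.0174 in CCL4 (SD, n = 2), so Jag2 stayed far below Jag1 in both groups. The HACY libraries had 0.0556 and 0.0680 FPKM, which did not track their 5 and 11 counts, so that SD does not reflect the counting error.

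The counts of Jag2 came to 0.251% and 0.380% of those of Jag1 in HACY and to 3.15% and 2.51% in CCL4, a quantity that library scaling cannot move. The log2 ratio was -8.34 ± 0.425 in HACY and -5.15 ± 0.231 in CCL4 (SD, n = 2), a difference of -3.19 with the groups apart. The two-sided exact permutation p was 0.33, the smallest that 2 against 2 libraries can give, and 0.5 after adjustment over the 3 ratios examined.

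Dll4 (chromosome 2, 119325784 to 119335962), the Delta-like ligand of endothelial cells, varied more between replicates than between groups. It had 7.65 and 14.0 CPM in HACY and 5.92 and 27.6 in CCL4. The lowest and the highest library were the CCL4 replicates, 4.66-fold apart, while the HACY replicates were 1.83-fold apart. Its change of -0.63 in log2 units (SE 0.64; 95% interval -2.14 to 0.88; adjusted p = 0.555 by edgeR) turned to 0.87 without CCL4 replicate 2 (adjusted p = 0.166, range 0.0560 to 0.954 over the alternatives). Summed endothelial markers differed 1.72-fold between the same CCL4 libraries, at 589 and 1009 CPM. In HACY they were 1767 and 1344 CPM, the reverse of the order of Dll4 there. Neither Cdh5 nor Stab2, the defining ones, was at 0 in any library. The part of endothelial cells in the level of Dll4 was not tested. The ratio of Dll4 to Jag1 counts was 7.02% and 8.50% in HACY and 6.36% and 21.3% in CCL4, with overlapping groups (exact permutation p = 1). Dll4 shares 214 exon bases with a noncoding gene on the opposite strand.

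Rbpj (chromosome 5, 53466152 to 53657362), the DNA-binding partner of all NOTCH receptors, did not pass the test. It had 121 and 102 CPM in HACY and 105 and 93.6 in CCL4, and the groups overlapped. The estimate in log2 units was 0.16 (SE 0.14; adjusted p = 0.479 by edgeR), and its 95% interval of -0.16 to 0.49 runs from 0.892 to 1.41 times the CCL4 level. The sign was negative with library size scaling and in the FPKM fits, each time by less than 0.01. The annotation also holds processed pseudogenes of Rbpj on chromosomes 4 and 6, with no rows of their own in the tables, and how the counting treated reads shared with them is not known.

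Neither target passed the test, and their values had opposite signs. Hes1 (chromosome 16, 30064384 to 30067796), a repressor and the most general readout of NOTCH signalling, had 20.4 and 26.3 CPM in HACY and 32.4 and 33.2 in CCL4. Both HACY libraries were below both CCL4 libraries. The log2 fold change was -0.49 (SE 0.19; 95% interval -0.93 to -0.05), and the edgeR adjusted p = 0.128 missed the threshold. It passed under 2 alternatives, library size scaling (0.0467) and the GC content and length correction (0.0371), in a range of 0.0371 to 0.642.

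Hey1 (chromosome 3, 8663359 to 8667256), a related repressor and a target of NOTCH in endothelium, lay on the other side. It had 32 and 29 counts in HACY and 11 and 14 in CCL4, or 1.75, 1.65, 0.556 and 0.690 CPM. Both HACY libraries were above both CCL4 libraries, although Poisson 95% intervals of the counts overlapped. The interval of CCL4 replicate 2 (7.65 to 23.5) overlapped those of HACY replicates 1 (21.9 to 45.2) and 2 (19.4 to 41.6). That of CCL4 replicate 1 (5.49 to 19.7) overlapped that of HACY replicate 2 only. The fold was 2.70 (95% interval 1.27 to 5.74; log2 1.43, SE 0.46) with an edgeR adjusted p = 0.0893, and it passed under none of the 13 alternatives that tested it (0.0857 to 0.439). Of the 10 endothelial markers 4 were called higher in HACY and 1 lower, with a median log2 fold change of 0.97; their part in the level of Hey1 was not tested.

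Set against each other within a library, Hey1 counts were 8.58% and 6.25% of Hes1 counts in HACY and 1.72% and 2.08% in CCL4. The log2 ratio was higher in HACY by 1.96, with means of -3.77 ± 0.323 and -5.73 ± 0.195 (SD, n = 2). The groups were apart, with the two-sided exact permutation p = 0.33 again at its smallest possible value (0.5 adjusted over 3 ratios).

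Dtx1 (chromosome 5, 120680202 to 120711927) encodes Deltex 1, a ubiquitin ligase that binds the NOTCH intracellular domain and is itself induced by NOTCH in lymphocytes. It had 25 and 35 counts in HACY and 223 and 151 in CCL4, or 1.37, 1.99, 11.3 and 7.44 CPM. Both HACY libraries were below both CCL4 libraries, with no overlap of the counting intervals (highest bound 48.7 counts in HACY, lowest 128 in CCL4). Dtx1 was 5.57-fold higher in CCL4 (log2 fold change -2.48 for HACY over CCL4, SE 0.37, edgeR adjusted p = 0.00850). It was called in 15 of 16 alternatives, among them each library left out (adjusted p 0.00546 to 0.0223), with a range of 8.44e-07 to 0.0688; with a library left out, the lone library of its group is assumed to vary like the other group. The exception was log2(FPKM + 0.1) with no mean filter, where 14 of 16368 genes were called in all. On the log2(FPKM + 1) scale its change was -0.97, since that pseudocount exceeds its level in HACY. B cells, which carry CD24 and are known to express Dtx1, left 29.3 and 24.1 CPM of summed markers in HACY and 26.1 and 26.3 in CCL4, with the defining gene Ms4a1 above 0 in every library (log2 fold change 0.06, edgeR adjusted p = 0.944).

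**Figure D3:**
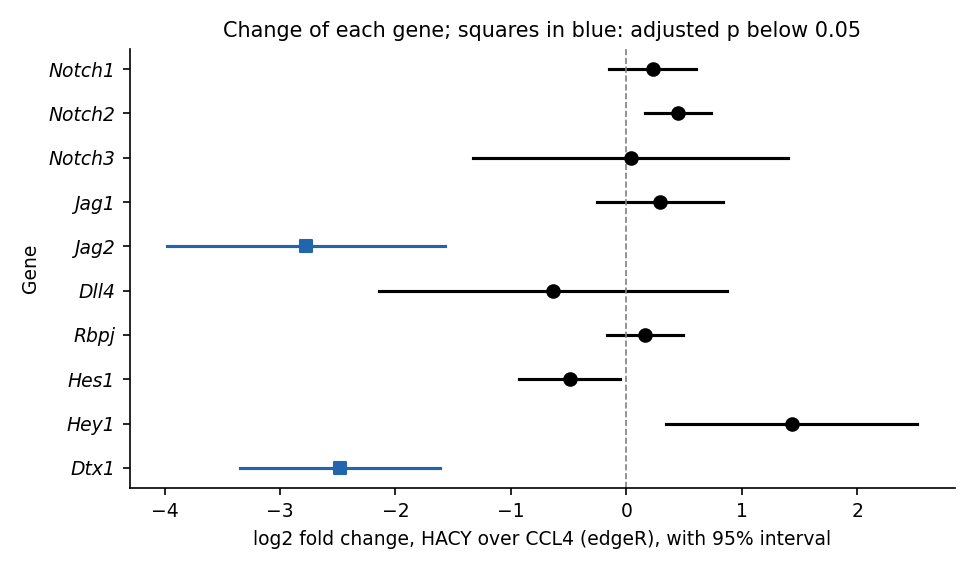
Log2 fold change of HACY over CCL4 for the 10 genes with approximate 95% intervals from edgeR; blue squares passed an adjusted p of 0.05. Intervals of Jag2 (-3.98 to -1.57) and Dtx1 (-3.35 to -1.61) lie well below 0, those of Notch2, Hes1 and Hey1 leave out 0 although their adjusted p missed the threshold, and those of Notch3 and Dll4 are the widest.

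Ordered by FPKM, the 10 genes fell into a high and a low set in HACY. In CCL4 Dll4, at 1.49 and 6.98 FPKM, came close to the lower Jag1 library at 7.30. In HACY the order was Notch2 (15.4 ± 0.778), Rbpj (13.9 ± 2.02), Notch1 (11.4 ± 1.09), Hes1 (11.1 ± 2.13) and Jag1 (9.67 ± 2.71), then Dll4 (2.65 ± 1.11), Hey1 (0.583 ± 0.0321), Dtx1 (0.190 ± 0.0840), Notch3 (0.131 ± 0.0336) and Jag2 (0.0618 ± 0.00881), all as mean ± SD of 2 libraries. Libraries of neighbours overlapped between Notch2 and Rbpj, from Notch1 through Hes1 to Jag1, and between Dtx1 and Notch3, and were apart at the other steps. In CCL4 Hes1 was first (16.8 ± 1.01), apart from Rbpj (13.9 ± 0.676), which was apart from Notch2 (12.2 ± 0.756). Notch2, Notch1 (10.4 ± 1.90) and Jag1 (8.88 ± 2.24) overlapped in turn, and Dll4 (4.24 ± 3.88) followed, apart from Jag1 but overlapping Dtx1 (1.34 ± 0.351). Below Dtx1 came Jag2 (0.520 ± 0.0174), Hey1 (0.164 ± 0.0958) and Notch3 (0.124 ± 0.105), of which the last 2 overlapped. Over all 4 libraries Hes1, Rbpj and Notch2 stood near the 69th percentile of tested genes by mean FPKM, and Notch3, Jag2 and Hey1 below the 10th.

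By profile over the 4 libraries (root mean square distance of centred log2 CPM), the genes nearest to Jag2 were Kcng4, a potassium channel subunit (0.115), Rd3, a regulator of retinal guanylate cyclase (0.133), and Osbp2, an oxysterol-binding protein (0.228). Those nearest to Dtx1 were Ppargc1a, a coactivator of mitochondrial genes (0.0982), Adora1, an adenosine receptor (0.124), and Ppp1r3c, a glycogen-targeting phosphatase subunit (0.127). Jag2 and Dtx1 were 0.320 from each other. With 4 libraries in 2 groups, likeness of this kind largely reflects a group difference of similar size.

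The wider pathway was read from a list of 60 genes by role, of which 53 were tested. By edgeR with all libraries, 4 of its genes rose and 3 fell, or 7 of 53, beside 11.7% of all genes called, with a median log2 fold change of 0.04 (-0.13 with library size scaling). Excluding the 10 genes above leaves 43 tested, with 4 rises and 1 fall, where 8.19% of all tested genes were called higher and 3.54% lower. The number of calls fell without either HACY library and rose without CCL4 replicate 2, for the list and for all tested genes alike. A further 10 genes outside the set above were called under at least 1 of 16 alternatives, among them Neurl3, Numbl, Maml2, Furin, Hes6, Lfng, Mib2, Notch4 and Psen2. DESeq2 called 3 of these, Neurl3, Numbl and Maml2.

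Of 10 genes of receptor cleavage, proteases and gamma-secretase subunits, 2 rose, where 8.19% of all tested genes did, and 8 had a positive value, where 49.1% of all tested genes did; the median was 0.42. Ncstn, nicastrin, the subunit of gamma-secretase that receives its substrates, had 156 and 146 CPM in HACY and 84.6 and 101 in CCL4, with the groups apart (log2 0.70, SE 0.14, edgeR adjusted p = 0.0216). Leaving out HACY replicate 1 gave 0.132 and leaving out HACY replicate 2 gave 0.0685, in a range of 0.00151 to 0.132 over 16 alternatives. Adam10, the protease that cuts the ligand-bound receptor, had 175 and 185 CPM in HACY and 116 and 130 in CCL4 (log2 0.55, SE 0.12, adjusted p = 0.0337). Its adjusted p was 0.168 and 0.230 when the first or the other HACY library was left out and 0.0553 without CCL4 replicate 1. It was also above 0.05 with upper-quartile (0.0513) and library size scaling (0.0751), the GC content and length correction (0.0550) and the FPKM fits, in a range of 0.0129 to 0.230. Macrophage markers (7 of 7 called higher, median 1.62), hepatocyte markers (7 of 8, median 1.52) and endothelial markers (4 of 10 higher and 1 lower, median 0.97) moved with these genes, and their part in the result was not tested.

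In the nuclear complex 1 of 10 genes rose, where 8.19% of all tested genes did. This was Kat2b, an acetyltransferase coactivator, with 60.5 and 69.8 CPM in HACY and 30.9 and 38.1 in CCL4 (log2 0.92, SE 0.17, edgeR adjusted p = 0.0167). With all libraries its adjusted p ran from 0.0002 in DESeq2 to 0.0783 in log2(FPKM + 0.1) with no mean filter. Its log2 fold change was 0.81 without HACY replicate 2, a fit that did not call it. The coactivators Maml1 (log2 -0.30) and Maml2 (0.84) did not pass in edgeR (adjusted p = 0.164 and 0.0626), and DESeq2 called Maml2 (0.0484, in a range of 0.0326 to 0.312). Of 14 ubiquitin ligase and endocytosis genes edgeR called Dtx1 lower and Dtx3l higher, where 3.54% of all tested genes were lower and 8.19% higher. Near the threshold were Neurl3, a Neuralized-type ligase (log2 0.85, adjusted p = 0.0508 by edgeR, 0.00644 to 0.364 over the alternatives), and Numbl, a relative of the NOTCH inhibitor Numb (-0.79, 0.0569, 0.0186 to 0.257), both called by DESeq2. Dtx3l, a Deltex relative that is induced by interferon, had 149 and 139 CPM in HACY and 92.6 and 77.8 in CCL4 (log2 0.76, SE 0.14, edgeR adjusted p = 0.0167; 0.102 without HACY replicate 1, range 0.000601 to 0.102), so these Deltex genes had opposite signs. Dtx2, Dtx3 and Dtx4 did not pass in edgeR.

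Among 10 target genes 6 were tested and 1 was called lower, where 3.54% of all tested genes were. This was Hes7, an oscillating repressor of the embryonic somite clock. It had 1 count in each HACY library and 18 and 17 in CCL4, a ratio of pooled counts of 17.7 with a counting interval of 4.54 to 152, and like Jag2 it passed the filter through CCL4. Its adjusted p was 0.0228 by edgeR, 0.166 and 0.151 when the first or the other HACY library was left out and 0.0715 without CCL4 replicate 1, in a range of 0.0165 to 0.166. DESeq2 gave it no adjusted p (unadjusted 0.0107), and log2(FPKM + 0.1) with no mean filter gave 0.0529. The other tested targets, Hes6, Heyl and Nrarp, did not pass in edgeR, and Hes2, Hes3 and Hes5 had no count in any library, which allows up to 3 counts per library. Of the glycosyltransferases, which tune ligand choice, 0 of 5 were called by edgeR, DESeq2 or limma-voom. An unadjusted p below 0.05 in edgeR was reached by 1 of them, where 30.1% of all tested genes reached it. The remaining receptor, Notch4, an endothelial gene, had 39.3 and 27.7 CPM in HACY and 12.6 and 29.5 in CCL4, with overlapping groups, and the ligand Dll1 had 4.21 and 4.94 against 6.57 and 5.82. Neither passed with all libraries, and Notch4 passed without CCL4 replicate 2 (edgeR adjusted p = 0.0142, in a range of 0.0142 to 0.784).

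**Figure D4:**
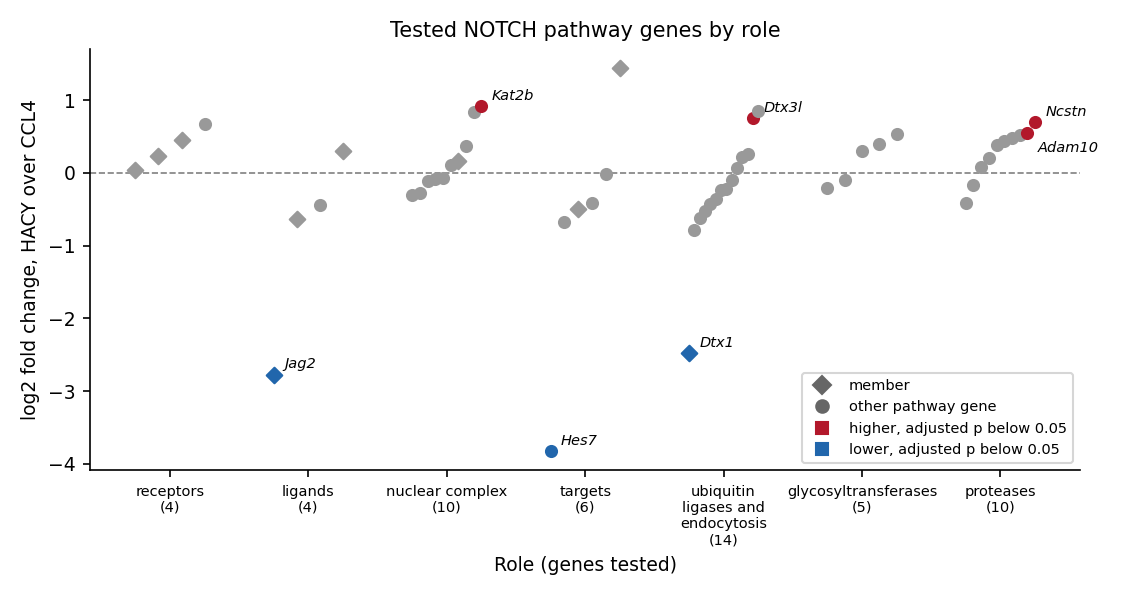
Log2 fold change of HACY over CCL4 for the 53 tested pathway genes, grouped by role with the number tested; diamonds are the 10 genes described above and colours mark an edgeR adjusted p below 0.05. The calls are Ncstn, Adam10, Kat2b and Dtx3l above 0 and Hes7, Jag2 and Dtx1 below -2, and Hey1, not called, is the highest at 1.43.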

How the data were processed

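Paired-end stranded mRNA libraries of MACS-sorted CD24+ liver cells were made from total RNA, per the labels' protocols. Titles gave each library's group and replicate number. The deposited tables give raw read counts per gene symbol, per the file headers, with FPKM values from the authors beside them. Trimmomatic, HISAT2, Cufflinks, HTSeq, DESeq and mm10 appear in the submitters' processing notes without version or role. The annotation and the strand setting were not given in the sources used here. GENCODE vM21 on GRCm38, the assembly of mm10, gave positions.

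Genes were kept by filterByExpr at a minimum count of 10 and a total of 15. TMM-scaled counts were tested with edgeR 4.0.16 (R 4.3.3), robust quasi-likelihood, two-sided, treatment only, Benjamini-Hochberg over 13428 genes, threshold 0.05. Standard errors are the log2 fold change over the square root of F, and 95% intervals use them, both approximate. Ratios were compared by exact permutation. Replicates were not copies (chi-square per degree of freedom 19.8 in HACY and 35.6 in CCL4). Names turned into dates stand in 27 rows, with at most 0.2% of counts. The fit was also run on counts simulated from its own estimates of spread, which cannot show whether these data meet its assumptions.

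The 10 genes, the wider list and the markers were chosen with earlier results of these data known. All 10 are named whatever their values, as is every called gene of the wider list, with the 3 tested genes nearest to each called one of the 10. As alternatives, DESeq2 1.42.0, limma-voom (limma 3.58.1), scaling by RLE, by upper quartile or by library size, other filters, a replicate block, limma on log2 FPKM (pseudocounts 1 and 0.1, mean FPKM of at least 0.5), an offset for GC content and length (splines, for 97.0% of tested genes) and each library left out were run. Leaving out a library leaves 1 in its group, which is then assumed to vary like the other group. FPKM with no mean filter was added after seeing the data.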

Additional observations from a re-analysis of the deposited data

How the results depend on the processing

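Of 151 values of the 10 genes under 16 alternatives, 132 kept their direction and side of the threshold, 3 lost a call, 6 gained one and 10 changed sign. The changes of sign were in genes that were not called: Notch3 (-0.0253 with upper-quartile scaling, -0.13 by library size, and between -0.48 and 0.86 with a library left out), Rbpj (-0.0074 by library size, -0.0051 in log2(FPKM + 1), and -0.0058 in log2(FPKM + 0.1) with and without the mean filter), Dll4 (-1.35 to 0.87 with a library left out) and Jag1 (-0.0293 to 0.556 likewise). The number of the 10 genes called, 2 with all libraries, was 4 with the GC content and length correction (Notch2 and Hes1 added), 1 with at least 1 CPM in all 4 libraries, in log2(FPKM + 1) and in log2(FPKM + 0.1), where Jag2 was not tested, and 0 in log2(FPKM + 0.1) with no mean filter; with a library left out it was 1 to 3. The wider list, with 7 calls, had 11 with the correction, 4 in log2(FPKM + 1), 4 in log2(FPKM + 0.1), 0 with no mean filter and 2 to 13 with a library left out. All-gene calls were 14 with no mean filter and 629 to 3047 with a library left out. With the GC content and length correction 2251 of 13024 tested genes were called, beside 1576 of 13428 without it. The cause of these changes in number was not tested, other than that fewer genes were tested under the filters.

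Within libraries, the difference in Hey1 to Hes1 ratio was 2.57 from FPKM and 1.73 to 2.18 with a library left out, that of Dll4 to Jag1 was -1.46 to 0.28 and that of Jag2 to Jag1 -3.49 to -2.89. Deviations of same-numbered libraries from their group means had r = -0.0989 across genes. With 2 libraries per group each gene gives a single deviation per group, so this cannot decide whether the numbers pair libraries. The protocols state no block. With the replicate block 1224 genes, 2 of the 10 and 8 of the wider list were called. Depth limits Jag2, Hey1 and Notch3, which had 5 to 66 counts per library. At such depth the authors' FPKM did not always track the counts, as for Hey1 in CCL4, with 11 and 14 counts and 0.0963 and 0.232 FPKM.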
